A study of Homo sapiens with 12 samples.

Results

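The transcripts described here encode 10 secreted glycoproteins and proteoglycans of the stromal extracellular matrix, namely decorin (DCN), biglycan (BGN), lumican (LUM), versican (VCAN), fibronectin (FN1), fibrillin-1 (FBN1), elastin (ELN), osteonectin (SPARC), periostin (POSTN) and tenascin-C (TNC). They were chosen by gene symbol, and all 10 were found once each among the 61806 genes of the deposited table. All 10 passed the filter on low counts and belong to the 19505 genes tested. RNA sequencing was performed on wild-type cells of the established human embryonic stem cell line H1 during cardiac differentiation. Cells of every group were exposed to the WNT activator CHIR99021 at the start of differentiation and received insulin on the next day. NP-IWP2 cells stayed in their wells (static culture) and were treated with the WNT inhibitor IWP2, P-DF cells were passaged on Day 2 (dissociated into new wells) and received no inducer, and P-IWP2 cells were passaged on the same day and treated with IWP2. Each treatment was collected on Day 12 and Day 16, with 2 libraries in each of the 6 groups. A static group without IWP2 was not analysed here, so both passaged treatments are compared with the same NP-IWP2 libraries. P-DF differs from these libraries both in passaging and in IWP2. The study reports that the ROCK inhibitor Y27632 was added in its later differentiation experiments. It also replated passaged cells at several split ratios, so cell density may differ too. Nothing in the labels says whether the 2 libraries of a group came from separate cultures, so p-values measure only the spread between libraries.

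The extracellular matrix outside basement membranes is built mostly by mesenchymal cells such as fibroblasts. Decorin, biglycan and lumican are small leucine-rich proteoglycans that bind collagen fibrils, and versican is a large chondroitin sulphate proteoglycan that binds hyaluronan and is abundant in the cardiac jelly of the embryonic heart. Fibronectin forms pericellular fibrils that integrins bind, fibrillin-1 and elastin build microfibrils and elastic fibres, and osteonectin, periostin and tenascin-C are matricellular proteins, which bind matrix and cells and are typical of developing and remodelling tissue.

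Total counts ranged from 14885589 to 19176239 per library, and 3 counts in a library, the floor used below, corresponded to 0.156 to 0.202 CPM (counts scaled by library size). Levels are given as deposited FPKM (fragments scaled by gene length and library size). The labels name a library kit made for long reads, for which scaling by length would not hold, beside tools for short reads, so comparisons of level between genes rest on the deposited scaling. In NP-IWP2 Day 12 replicate 1, for example, DCN had 53.0 CPM and BGN 12.7 CPM, but DCN was the lower of the pair in FPKM. Cardiomyocyte markers were high in every library, with summed levels of 8 markers from 2298 to 11380 FPKM. The library labelled P-IWP2 Day 12 replicate 5 stood apart and held the lowest of these sums, against 5524 FPKM in replicate 6 of its group. Its 8 fibroblast and stromal markers summed to 788.3 FPKM, against 43.53 in replicate 6, 32.35 and 41.41 in P-DF Day 12, and 710.9 and 730.0 in NP-IWP2 Day 12. Because all 12 libraries share an estimate of the spread, results are given below with and without this library. Without it, P-IWP2 Day 12 is replicate 6 alone, and the spread in its comparisons comes from other libraries. In comparisons that do not use P-IWP2 Day 12, leaving out replicate 6 in its place gave nearly the same counts of all genes called.

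On Day 16, all 10 genes lay lower in both P-DF libraries and in both P-IWP2 libraries than in either NP-IWP2 library. Over all genes tested, 50.9% lay lower without overlap in P-DF and 51.4% in P-IWP2. The size of the separation differed widely between the 10 genes. DCN and BGN were at or close to the detection floor in passaged cells, LUM was below 1 FPKM, FN1 and SPARC were several-fold lower and remained abundant, and VCAN and POSTN differed least. In edgeR's quasi-likelihood test with Benjamini-Hochberg adjustment over all genes, 7 of the 10 genes fell in P-DF on Day 16, where 15.3% of all genes tested were called in either direction. The other 3, VCAN, ELN and POSTN, were not called. In P-IWP2 on Day 16, 9 of the 10 fell, with ELN not called, where 17.1% of all genes were called. Day 16 medians of the log2 fold change over the 10 genes were -5.96 (P-DF) and -6.03 (P-IWP2), against -0.02 and -0.03 over all genes. With ELN, which had 0 counts in P-DF, set to its bound, the P-DF median was -4.43. Without P-IWP2 Day 12 replicate 5, 9 genes were called in P-DF and all 10 in P-IWP2 on Day 16, each of them lower, where 32.4% and 34.8% of all genes were called. The counts were lowest without P-DF Day 16 replicate 3, at 3 genes in P-DF, and without P-IWP2 Day 16 replicate 6, at 4 genes in P-IWP2.

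**Figure D1:**
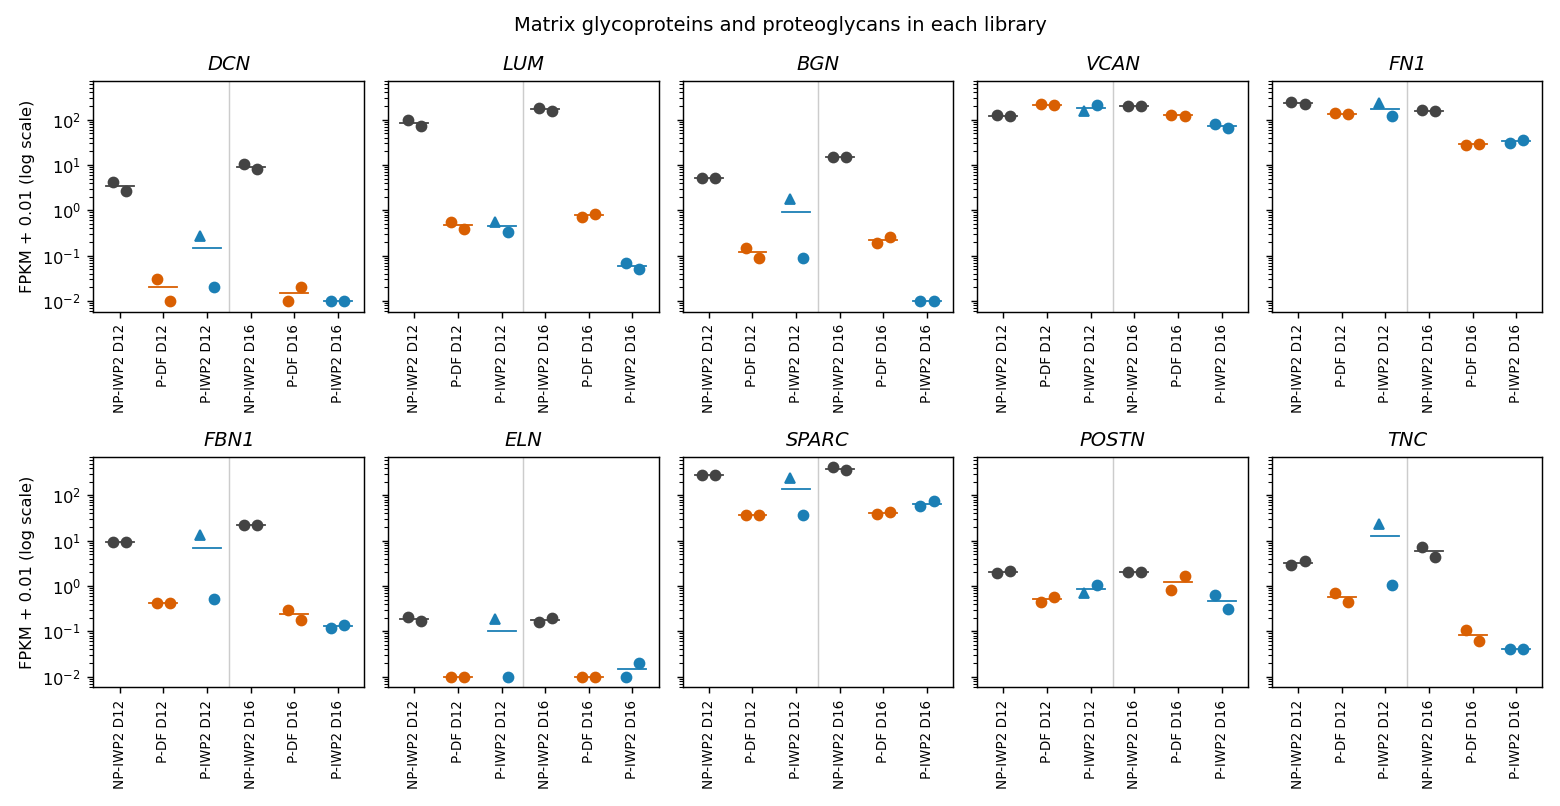
FPKM plus 0.01 on a log scale for each of the 10 genes (panels) in each library (points), with group means as short lines and groups on the horizontal axis (D12 and D16 stand for Day 12 and Day 16). The triangle is P-IWP2 Day 12 replicate 5, and points at the bottom are libraries listed at 0. All Day 16 passaged libraries lie below the static ones in every panel, and only VCAN lies above them in all 4 Day 12 passaged libraries.

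On Day 12, 9 of the 10 genes lay lower in both P-DF libraries than in either NP-IWP2 library, and VCAN lay higher. Over all genes tested, 41.7% lay lower without overlap and 24.9% higher. In P-DF on Day 12, 5 of the 10 genes fell (LUM, DCN, BGN, SPARC and POSTN), where 4.01% of all genes were called. In P-IWP2 on Day 12, 2 fell (LUM and DCN), where 1.66% were called. The ranges of 4 genes (FN1, FBN1, ELN and TNC) overlapped between P-IWP2 and NP-IWP2 on Day 12, in each case through replicate 5. Of all genes, 18.1% lay lower and 15.9% higher without overlap there. Day 12 medians over the 10 genes were -3.64 for P-DF, or -2.75 with ELN at its bound, and -1.14 for P-IWP2, against -0.00 and 0.01 over all genes. Without replicate 5, 10 genes were called in P-DF on Day 12 (9 lower and VCAN higher) and 9 in P-IWP2 (8 lower and VCAN higher), where 21.9% and 15.0% of all genes were called. The counts were lowest, at 1 gene each, without P-DF Day 12 replicate 4 in P-DF and without NP-IWP2 Day 12 replicate 1 in P-IWP2. With both days in a model of the 8 libraries of P-DF and NP-IWP2, 9 of the 10 genes fell and VCAN was not called, where 33.5% of all genes were called. The same model for P-IWP2 and NP-IWP2 gave 3 genes that fell (LUM, DCN and POSTN), where 2.47% were called. Without replicate 5 it gave 9, with VCAN not called, where 24.0% were called. Fewer cells of a type and less RNA per cell cannot be told apart in these bulk samples.

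**Figure D2:**
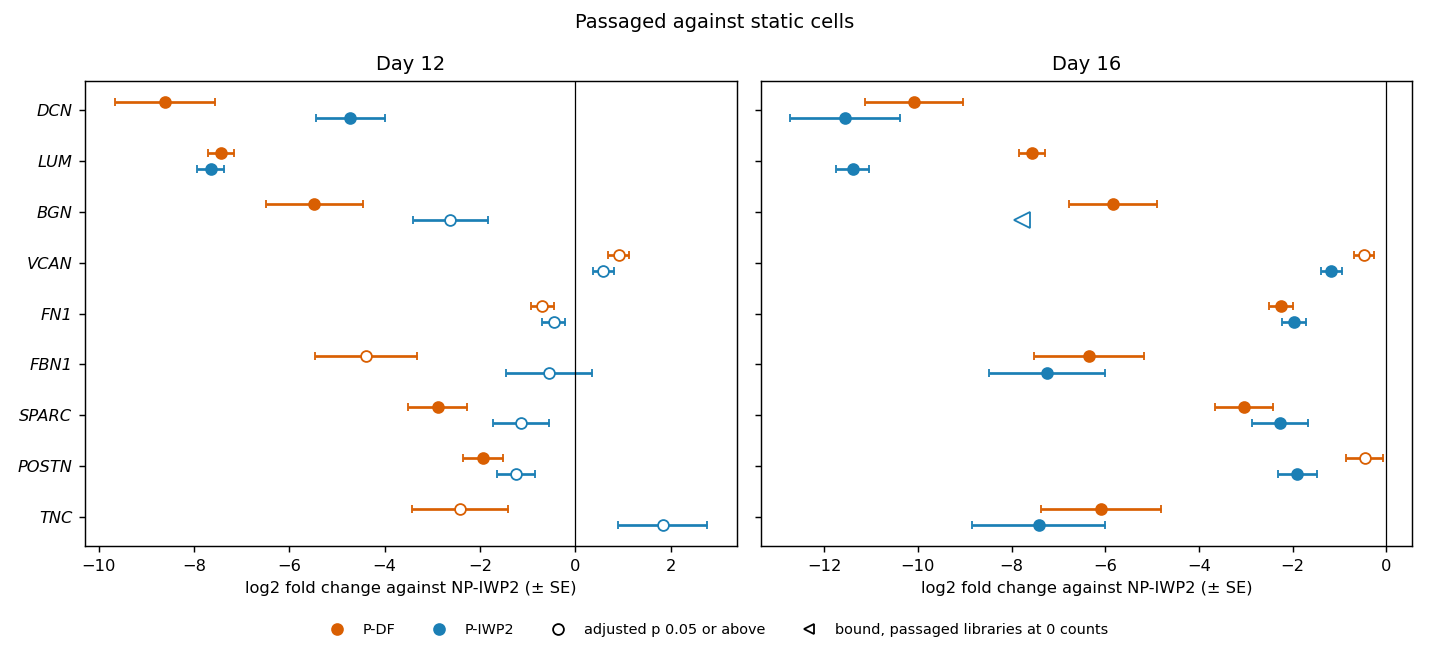
Log2 fold change of 9 of the 10 genes in P-DF and P-IWP2 against NP-IWP2 on each day, with standard errors from edgeR's fit to 12 libraries. Filled points passed the adjusted threshold of 0.05, and the open triangle is the bound for BGN, which had 0 counts in both P-IWP2 Day 16 libraries. ELN is left out because its counts were too few for a fitted fold change. All points lie to the left of 0 on Day 16, and VCAN in both treatments and TNC in P-IWP2 lie to the right on Day 12.

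The calls on a single day differed in how they held when each of the 12 libraries was left out in turn. LUM held its call in all 12 fits in both treatments on both days, as did FN1, called on Day 16 only, in both treatments. DCN held in 11 fits (P-DF) and 10 fits (P-IWP2) on Day 12 and in all 12 fits on Day 16. BGN held in 4 fits on Day 12 in P-DF (adjusted p up to 0.233, without P-DF Day 12 replicate 4), and on Day 16 in 10 fits in P-DF and 12 in P-IWP2. SPARC held in 2 fits on Day 12 in P-DF (adjusted p up to 0.247, without P-DF Day 12 replicate 4), in 9 fits on Day 16 in P-DF and in 2 fits on Day 16 in P-IWP2 (adjusted p up to 0.148, without P-IWP2 Day 16 replicate 5). In both cases the 2 fits in which SPARC held were those without P-IWP2 Day 12 replicate 5 or 6. POSTN held in 6 fits on Day 12 in P-DF (adjusted p up to 0.210) and in 9 on Day 16 in P-IWP2. FBN1 and TNC held in 10 and 9 fits in P-DF and in 10 fits each in P-IWP2 on Day 16, and VCAN in 11 fits in P-IWP2. In the model of both days, the falls of LUM, DCN, BGN, SPARC, FBN1, FN1 and TNC in P-DF held in all 8 fits and that of POSTN in 5.

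Among the small leucine-rich proteoglycans of static cells, LUM, which spaces collagen fibrils, had the highest level of the 3 members. Its level in NP-IWP2 was 97.59 and 73.18 FPKM on Day 12 and 182.75 and 157.06 FPKM on Day 16. The P-DF libraries held 0.55 and 0.38 FPKM on Day 12 and 0.72 and 0.81 FPKM on Day 16. The P-IWP2 libraries held 0.55 and 0.32 FPKM on Day 12 and 0.06 and 0.04 FPKM on Day 16. All passaged libraries lay far below the static libraries of the same day, and the lowest values were those of P-IWP2 on Day 16, from 3 and 2 counts. The log2 fold change of LUM was -7.43 ± 0.28 (SE) for P-DF (adjusted p = 8.22e-06) and -7.65 ± 0.28 in P-IWP2 (adjusted p = 6.79e-06) on Day 12. On Day 16 it was -7.56 ± 0.27 for P-DF (adjusted p = 5.44e-06) and -11.39 ± 0.36 in P-IWP2 (adjusted p = 1.42e-06), where the ratio of pooled counts was 3400 with an exact 95% interval for counting error of 1460 to 10500. LUM lost its call on Day 12 in P-IWP2 only when no more than the 2 groups compared entered the fit (adjusted p = 0.102).

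DCN, which binds collagen and growth factors of the TGF-beta family, was 4.10 and 2.65 FPKM in NP-IWP2 on Day 12 and 10.48 and 7.98 FPKM on Day 16. Its deposited counts in the static libraries were 947, 562, 2587 and 1659. P-DF had 3 and 0 counts on Day 12 and 1 and 2 counts on Day 16, which is at or under the floor of 3 counts in all 4 libraries. P-IWP2 had 52 counts in replicate 5 and 3 in replicate 6 on Day 12, and 0 and 1 on Day 16. From pooled counts per total, DCN was 453 times higher in NP-IWP2 than in P-DF on Day 12, with an exact 95% interval for counting error of 155 to 2200, and 1370 times higher on Day 16 (470 to 6660). The ratio to P-IWP2 was 25.8 on Day 12 (19.7 to 34.4), with replicate 5 holding 52 of the 55 counts, or 243 (83.0 to 1180) against replicate 6 alone, and 4500 on Day 16 (807 to 178000). The fall passed the test for P-DF (adjusted p = 0.00381 on Day 12 and 0.000619 on Day 16) and in P-IWP2 (0.0148 and 0.000507).

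BGN, a close relative of decorin encoded on the X chromosome, was even between static libraries, at 5.27 and 5.26 FPKM on Day 12 and 14.78 and 14.75 FPKM on Day 16. P-DF held 0.14 and 0.08 FPKM on Day 12 and 0.18 and 0.25 FPKM on Day 16. P-IWP2 held 1.76 FPKM in replicate 5 and 0.08 FPKM in replicate 6 on Day 12, and 0 counts in both libraries on Day 16. Static and passaged groups did not overlap on either day. BGN fell in P-DF with a log2 fold change of -5.48 ± 1.02 on Day 12 (adjusted p = 0.0281) and of -5.83 ± 0.94 on Day 16 (adjusted p = 0.00611). On Day 16 it was at least 220-fold lower in P-IWP2, taking the floor of 3 counts in each library, and the test called the fall (adjusted p = 0.00274). On Day 12 the log2 fold change in P-IWP2 was -2.62 ± 0.79 (adjusted p = 0.195), and from replicate 6 alone it was -5.98. HAUS7, which overlaps BGN on the other strand, had 16 to 35 counts in static libraries, against 207 to 678 for BGN. In the passaged libraries HAUS7 had 5 to 16 counts, more than BGN in 6 of 8 of them, and the strand setting of the counting is not given in the sources used here.

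LUM and DCN are neighbours on the minus strand of chromosome 12 in the files' annotation (hg38), with LUM at chr12:91102629-91111494 and DCN at chr12:91140484-91183217, 28990 bases apart with no other listed gene between them. KERA and EPYC, also small leucine-rich proteoglycan genes, lie next to LUM on its other side, and neither passed the filter on low counts. Of 13 other genes of this family, 7 passed the filter. On Day 12 none of the 7 was called in either passaged treatment by edgeR, with 4 in P-DF and 2 in P-IWP2 at an unadjusted p under 0.05. On Day 16, 4 fell in P-DF and 6 in P-IWP2, and none rose, where 9.86% and 9.95% of all genes fell. FMOD (fibromodulin) was 25.48 and 21.10 FPKM in NP-IWP2 on Day 16, 0.20 and 0.42 FPKM in P-DF and 0.16 and 0 FPKM in P-IWP2, and fell in P-DF with a log2 fold change of -5.96 ± 1.33 (adjusted p = 0.0181). PRELP also fell in P-DF, with 122 and 99 counts in NP-IWP2 and 0 and 5 in P-DF, as did ECM2 with 29 and 35 counts against 2 and 0, and ASPN with 18 and 16 counts against 1 and 0.

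RefSeq (GRCh38.p14) gave a promoter for 7 of the 10 genes. Promoters are printed for the pair whose RefSeq start lies within 10 bases of the start in the files' annotation: BGN, a proteoglycan that was at 0 counts in one passaged group, and FN1, a glycoprotein that stayed abundant. Each run is the 250 bases before the start, 5′ to 3′, at chrX:153494730-153494979 on the plus strand for BGN and at chr2:215436069-215436318 on the minus strand for FN1. Capitals mark matches on either strand to 5 motifs: GGGCGG (the GC box bound by SP1), TATAA, TGACGTCA (a cyclic AMP response element), TGANTCA (an AP-1 site) and CATTCC (a TEAD site).
BGN: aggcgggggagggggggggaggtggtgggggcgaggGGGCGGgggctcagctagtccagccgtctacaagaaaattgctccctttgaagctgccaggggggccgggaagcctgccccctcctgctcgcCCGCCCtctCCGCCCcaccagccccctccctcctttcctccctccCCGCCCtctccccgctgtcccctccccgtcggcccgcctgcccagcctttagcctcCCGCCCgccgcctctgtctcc
FN1: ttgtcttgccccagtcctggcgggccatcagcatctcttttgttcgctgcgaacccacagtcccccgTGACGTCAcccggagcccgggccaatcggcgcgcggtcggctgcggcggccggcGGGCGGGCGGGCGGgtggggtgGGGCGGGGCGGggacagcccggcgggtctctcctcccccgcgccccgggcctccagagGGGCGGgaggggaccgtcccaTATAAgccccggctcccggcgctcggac
The BGN promoter held 5 GC boxes and none of the other motifs. The FN1 promoter held 6 GC boxes, 1 TGACGTCA and a TATAA that begins 28 bases before the start. Their GC contents were 74.0% and 76.4%, against a median of 58.0% over 35116 RefSeq promoters. Over the 7 promoters, GGGCGG was present in 4 (42.6% of all promoters), TATAA in 4 (18.9%), CATTCC in 2 (11.9%), TGACGTCA in 1 (1.65%) and TGANTCA in 1, that of POSTN (6.57%).

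VCAN was the only member that lay above the static level in all 4 passaged libraries on Day 12. Its level in NP-IWP2 was 123.39 and 118.38 FPKM on Day 12 and 199.13 and 204.16 FPKM on Day 16. In P-DF it was 214.94 and 211.30 FPKM on Day 12 and 127.61 and 120.08 FPKM on Day 16. In P-IWP2 it was 153.85 and 208.11 FPKM on Day 12 and 81.00 and 66.84 FPKM on Day 16. Both passaged groups thus lay above the static group on Day 12 and below it on Day 16, with no overlap on either day. The Day 12 log2 fold change was 0.91 ± 0.22 for P-DF (adjusted p = 0.0538) and 0.58 ± 0.22 in P-IWP2 (adjusted p = 0.316), neither of which passed the test. On Day 16 it was -0.47 ± 0.22 in P-DF (adjusted p = 0.172), and VCAN fell in P-IWP2 with a log2 fold change of -1.18 ± 0.22 (adjusted p = 0.00861). Without P-IWP2 Day 12 replicate 5, the Day 12 log2 fold change of VCAN was 0.90 in P-DF and, from replicate 6 alone, 0.87 in P-IWP2. In P-DF on Day 16 it was again -0.47. The antisense gene VCAN-AS1 had at most 129 counts in any library, against up to 55766 for VCAN.

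Whether the log2 fold change differed between the days was tested as an interaction of treatment and day, which does not test a change of sign. For VCAN the Day 16 log2 fold change minus the Day 12 one was -1.76 ± 0.31 for P-IWP2 against NP-IWP2 (adjusted p = 0.0295) and -1.38 ± 0.31 for P-DF (adjusted p = 0.0998). Without replicate 5 the values were -2.05 for P-IWP2, with replicate 6 alone on Day 12, and -1.37 for P-DF.

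Versican binds hyaluronan, and HAS2, the hyaluronan synthase of the embryonic heart, was 19.02 and 23.73 FPKM in NP-IWP2 and 38.77 and 39.19 FPKM in P-DF on Day 12. On Day 16 HAS2 was 13.44 and 17.59 FPKM in NP-IWP2, 0.50 and 0.68 FPKM in P-DF, and 0.93 and 1.07 FPKM in P-IWP2. It fell on Day 16 in P-DF with a log2 fold change of -4.47 ± 0.69 (adjusted p = 0.00408) and in P-IWP2 of -3.67 ± 0.65 (adjusted p = 0.00675). The log2 fold change of HAS2 on Day 12 was 0.96 ± 0.56 in P-DF (adjusted p = 0.352). Of 12 genes of hyaluronan synthesis and binding, 9 passed the filter, of which 3 fell and none rose on Day 16 in each passaged treatment (9.86% and 9.95% of all genes fell). The other genes called in both were HAS1 and HAPLN1, the latter a link protein that stabilises versican on hyaluronan. HAPLN1 was 5.01 and 4.45 FPKM in NP-IWP2, 0.49 and 0.52 FPKM in P-DF and 0.81 and 1.48 FPKM in P-IWP2 on Day 16.

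FN1 was 239.31 and 222.03 FPKM in NP-IWP2 on Day 12 and 160.47 and 156.13 FPKM on Day 16. The P-DF libraries held 139.15 and 130.04 FPKM on Day 12 and 27.58 and 29.14 FPKM on Day 16. The P-IWP2 libraries held 229.78 FPKM in replicate 5 and 119.13 FPKM in replicate 6 on Day 12, and 30.08 and 36.02 FPKM on Day 16. Replicate 5 lay between the static libraries, and every other passaged library lay below them. The Day 12 log2 fold change was -0.69 ± 0.25 for P-DF (adjusted p = 0.150) and -0.45 ± 0.25 in P-IWP2 (adjusted p = 0.551). On Day 16 FN1 fell in P-DF with a log2 fold change of -2.25 ± 0.26 (adjusted p = 0.00103) and in P-IWP2 of -1.98 ± 0.25 (adjusted p = 0.00172), and both calls held with each of the 12 libraries left out in turn. Between Day 12 and Day 16 FN1 fell in P-DF with a log2 fold change of -1.99 ± 0.25 (adjusted p = 0.00212) and in P-IWP2 of -1.95 ± 0.25 (adjusted p = 0.00171). In NP-IWP2 the difference between the days was -0.43 ± 0.25 (adjusted p = 0.373). The interaction of P-DF with day was -1.56 ± 0.35 (adjusted p = 0.0994), and without replicate 5 it passed the test (adjusted p = 0.0005).

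FBN1, the main fibrillin of adult microfibrils, was 9.22 and 9.25 FPKM in NP-IWP2 on Day 12 and 22.05 and 21.80 FPKM on Day 16. In P-DF it was 0.41 and 0.42 FPKM on Day 12 and 0.29 and 0.17 FPKM on Day 16. In P-IWP2 it was 13.17 FPKM in replicate 5 and 0.50 FPKM in replicate 6 on Day 12, and 0.11 and 0.13 FPKM on Day 16. Replicate 5 was above both static libraries of its day, and the other passaged libraries lay far below them. On Day 16 FBN1 fell in P-DF with a log2 fold change of -6.35 ± 1.17 (adjusted p = 0.00847) and in P-IWP2 of -7.25 ± 1.23 (adjusted p = 0.00578). The Day 12 log2 fold change was -4.39 ± 1.07 for P-DF (adjusted p = 0.0540) and -0.56 ± 0.91 in P-IWP2 (adjusted p = 0.918). Without replicate 5 it was -4.39 for P-DF and, from replicate 6 alone, -4.12 in P-IWP2.

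FBN2, the fibrillin that predominates in fetal microfibrils, did not share this pattern, and it was singled out after its values were seen. FBN2 was 117.97 and 102.73 FPKM in NP-IWP2, 351.98 and 238.48 FPKM in P-DF, and 25.88 and 359.01 FPKM in P-IWP2 replicates 5 and 6 on Day 12. On Day 16 it was 148.79 and 141.79 FPKM in NP-IWP2, 264.30 and 220.51 FPKM in P-DF and 153.57 and 127.74 FPKM in P-IWP2. Over both days FBN2 was higher in P-DF by 1.24 ± 0.17 on the log2 scale (adjusted p = 0.000567), whereas FBN1 fell by 5.33 ± 0.38 (adjusted p = 9.53e-06). In single-day comparisons FBN2 was not called (P-DF log2 fold changes of 1.51 ± 0.87 for Day 12 and 0.97 ± 0.86 for Day 16). FBN1 made up 7.25% and 8.26% of the summed FPKM of both fibrillins in NP-IWP2 on Day 12 and 12.9% and 13.3% on Day 16. The share was between 0.0716% and 0.176% in the passaged libraries other than replicate 5, where it was 33.7%.

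**Figure D3:**
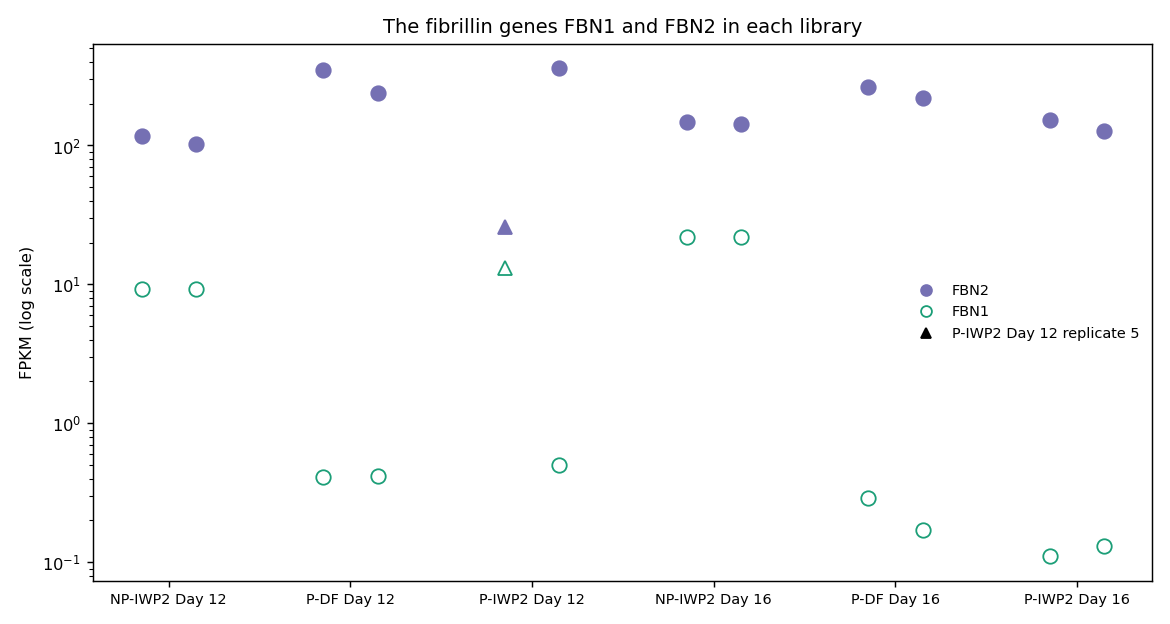
FPKM of FBN1 (open) and FBN2 (filled) on a log scale in each library, by group. The triangles are P-IWP2 Day 12 replicate 5. FBN2 lies above 100 FPKM in every library but that one, while FBN1 is at or above 9.22 FPKM in static libraries and at most 0.50 FPKM in passaged libraries other than that one.

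ELN, the core protein of elastic fibres, was near the floor in all libraries. Its counts were 24 and 17 in NP-IWP2 on Day 12 and 19 and 20 on Day 16, or 0.15 to 0.20 FPKM. P-DF libraries had 0 counts on both days. P-IWP2 had 18 and 0 counts on Day 12 and 0 and 1 on Day 16. ELN was at least 6.12-fold lower in P-DF on Day 12 and at least 6.35-fold lower on Day 16, taking the floor of 3 counts in each library, and the pooled ratio of NP-IWP2 to P-IWP2 on Day 16 was 41.3 (7.0 to 1670, counting error). The difference was not called on either day in either treatment (adjusted p from 0.0653 to 0.799), and ELN fell in P-DF in the model of both days (adjusted p = 0.00065).

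Of 21 other genes of elastic fibres and microfibrils, all of which were tested, 11 fell and none rose on Day 16 in each passaged treatment, where 9.86% and 9.95% of all genes fell. LOX, which cross-links elastin and collagen, was 26.92 and 18.71 FPKM in NP-IWP2 on Day 16, 0.19 and 0.23 FPKM in P-DF and 0.27 and 0.33 FPKM in P-IWP2. It fell in P-DF with a log2 fold change of -6.54 ± 0.54 (adjusted p = 0.000199) and in P-IWP2 of -5.99 ± 0.51 (adjusted p = 0.000297). LOX was also low in P-IWP2 Day 12 replicate 5, at 1.74 FPKM against 9.54 and 8.86 FPKM in NP-IWP2, and fell in P-IWP2 on Day 12 (adjusted p = 0.0114). FBLN2, EMILIN1 and EFEMP1, components of microfibrils and elastic fibres, fell in P-DF on Day 16 with log2 fold changes of -5.44, -5.17 and -4.32. In the model of both days, 12 of the 21 genes fell and 4 rose in P-DF, where 18.9% of all genes fell and 14.6% rose.

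SPARC, a collagen-binding matricellular protein, had the highest FPKM of the 10 genes in static cells. In CPM, FN1 (4120) and VCAN (1811) lay above SPARC (1317) in NP-IWP2 Day 12 replicate 1. SPARC was 283.69 and 284.48 FPKM in NP-IWP2 on Day 12 and 415.32 and 359.93 FPKM on Day 16. The P-DF libraries held 35.91 and 36.31 FPKM on Day 12 and 38.47 and 42.38 FPKM on Day 16. The P-IWP2 libraries held 239.19 FPKM in replicate 5 and 36.80 FPKM in replicate 6 on Day 12, and 57.97 and 73.60 FPKM on Day 16. No passaged library overlapped the static ones, and replicate 5 came closest. SPARC fell in P-DF with a log2 fold change of -2.89 ± 0.61 on Day 12 (adjusted p = 0.0367) and of -3.03 ± 0.62 on Day 16 (adjusted p = 0.0125). It fell in P-IWP2 on Day 16 with a log2 fold change of -2.28 ± 0.60 (adjusted p = 0.0311). On Day 12 the P-IWP2 log2 fold change was -1.14 ± 0.58 (adjusted p = 0.513), or -2.86 from replicate 6 alone.

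POSTN, a matricellular protein of valves and fibroblasts, was low in every group. It was 1.97 and 2.12 FPKM in NP-IWP2 on Day 12 and 2.02 and 2.00 FPKM on Day 16. In P-DF it was 0.44 and 0.56 FPKM on Day 12 and 0.82 and 1.66 FPKM on Day 16. In P-IWP2 it was 0.70 and 1.02 FPKM on Day 12 and 0.61 and 0.30 FPKM on Day 16. Static libraries were the highest on both days. POSTN fell in P-DF on Day 12 with a log2 fold change of -1.94 ± 0.42 (adjusted p = 0.0373), and on Day 16 the log2 fold change was -0.47 ± 0.39 (adjusted p = 0.452). In P-IWP2 it was -1.25 ± 0.40 on Day 12 (adjusted p = 0.219), and POSTN fell on Day 16 with a log2 fold change of -1.90 ± 0.41 (adjusted p = 0.0156).

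TNC, which is expressed at sites of tissue remodelling, was 2.85 and 3.54 FPKM in NP-IWP2 on Day 12 and 7.28 and 4.43 FPKM on Day 16. The P-DF libraries held 0.70 and 0.43 FPKM on Day 12 and 0.10 and 0.05 FPKM on Day 16. The P-IWP2 libraries held 23.71 FPKM in replicate 5 and 1.07 FPKM in replicate 6 on Day 12. On Day 16 both P-IWP2 libraries held 0.03 FPKM, from 5 counts each. Replicate 5 had the highest level of all 12 libraries, and all other passaged libraries lay below the static ones. On Day 16 TNC fell in P-DF with a log2 fold change of -6.09 ± 1.27 (adjusted p = 0.0139) and in P-IWP2 of -7.42 ± 1.42 (adjusted p = 0.00929). The Day 12 log2 fold change was -2.42 ± 1.00 for P-DF (adjusted p = 0.206) and 1.84 ± 0.93 in P-IWP2 (adjusted p = 0.513). Without replicate 5 the P-IWP2 value, from replicate 6 alone, turned to -1.49.

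Of 23 other matricellular genes, 18 passed the filter, of which 7 fell in P-DF and 6 in P-IWP2 on Day 16 and none rose (9.86% and 9.95% of all genes fell). They included TGFBI, a relative of periostin, which fell with a log2 fold change of -6.09 ± 0.69 in P-DF (adjusted p = 0.000958) and of -7.36 ± 0.75 in P-IWP2 (adjusted p = 0.000521), and SMOC2, a relative of osteonectin, which fell with a log2 fold change of -6.26 ± 1.38 in P-DF (adjusted p = 0.0172) and of -6.90 ± 1.45 in P-IWP2 (adjusted p = 0.0134). Of 13 glycoproteins and proteoglycans of basement membranes and other matrix, 2 rose and 5 fell in P-DF on Day 16, and 3 rose and 5 fell in P-IWP2. Of all genes, 5.39% rose and 9.86% fell in P-DF, and 7.15% rose and 9.95% fell in P-IWP2. VTN (vitronectin) was among those that fell in P-DF, with a log2 fold change of -5.06 ± 0.75 (adjusted p = 0.00338), as was EGFLAM, with 1342 and 842 counts in NP-IWP2 and 1 and 0 in P-DF. Of 19 genes that build the glycosaminoglycan chains of proteoglycans, 3 fell in P-DF and 1 in P-IWP2 on Day 16 and none rose, which is not far from the 9.86% and 9.95% of all genes that fell. CHSY1, a chondroitin synthase, was called in both and fell with a log2 fold change of -1.77 ± 0.19 in P-DF (adjusted p = 0.000783) and of -1.74 ± 0.19 in P-IWP2 (adjusted p = 0.000812).

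The order of the levels in FPKM differed between the groups. In NP-IWP2 on Day 12 the order was SPARC, FN1, VCAN and LUM, each separated from the next without overlap, followed by FBN1 and BGN, and then by DCN and TNC, whose ranges overlapped, POSTN and ELN. In NP-IWP2 on Day 16 LUM and FN1 overlapped after SPARC and VCAN. In P-DF the order was VCAN, FN1 and SPARC on Day 12 and VCAN, SPARC and FN1 on Day 16, without overlap, and each other member was at most 1.66 FPKM. Summed over the 10 genes, the level was 767.6 and 721.0 FPKM in NP-IWP2 on Day 12 and 1014 and 928.4 FPKM on Day 16. It was 392.3 and 379.5 FPKM in P-DF on Day 12, and 195.8 and 194.6 FPKM in P-DF and 169.9 and 177.0 FPKM in P-IWP2 on Day 16. VCAN made up 16.1% to 22.0% of this sum in the 4 static libraries, 54.8% to 65.2% in the 4 P-DF libraries, and 47.7% and 37.8% in P-IWP2 on Day 16. LUM made up 10.1% to 18.0% in static libraries and at most 0.416% in passaged ones. As a share of all counts, the 10 genes took 0.837% and 0.876% in NP-IWP2, 0.248% and 0.254% in P-DF and 0.195% and 0.198% in P-IWP2 on Day 16.

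**Figure D4:**
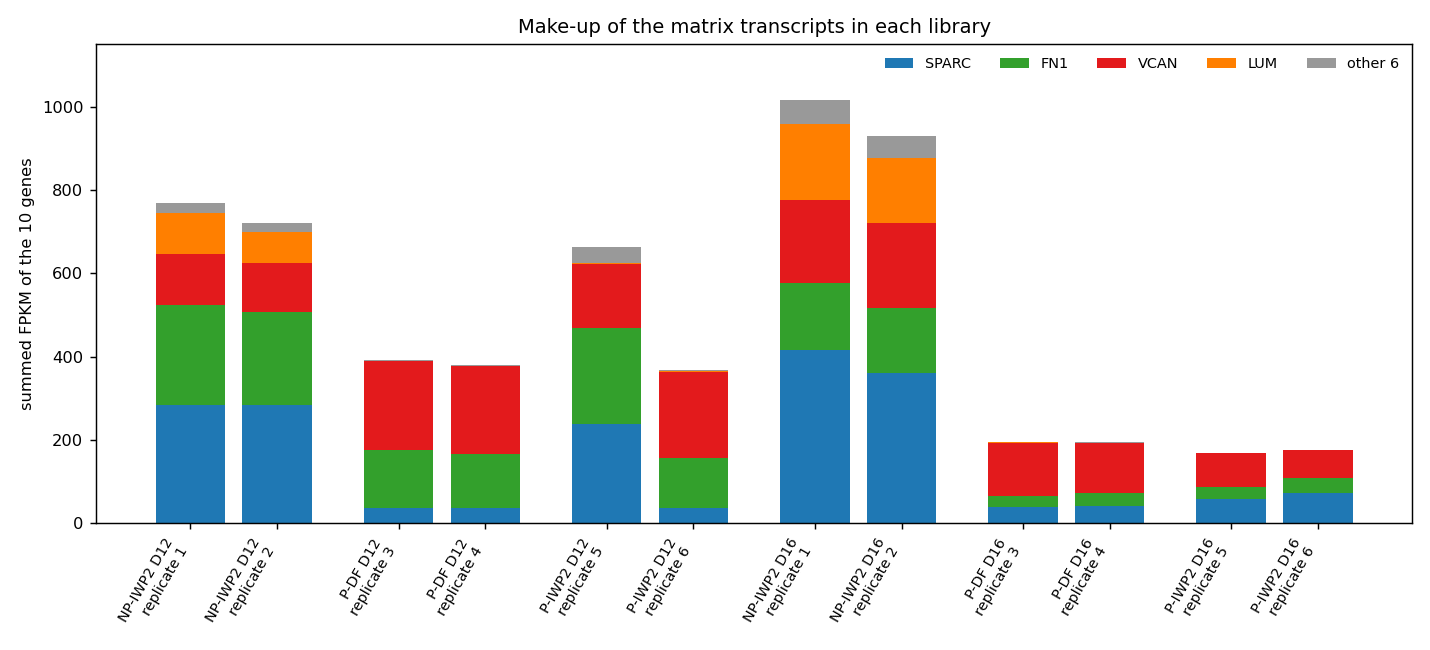
Summed FPKM of the 10 genes in each library (bars), split into SPARC, FN1, VCAN, LUM and the other 6 genes together. Static bars reach 721.0 to 1014 FPKM, and those of passaged libraries on Day 16 reach 169.9 to 195.8 FPKM and consist almost wholly of VCAN, SPARC and FN1. The bar of P-IWP2 Day 12 replicate 5 is near the static height but holds almost no LUM.

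P-IWP2 Day 12 replicate 5 differed from replicate 6 in some members and not in others. From counts per total, FBN1 was 26.4 times (exact 95% interval for counting error 22.4 to 31.2), TNC 22.2 times (19.1 to 26.1) and SPARC 6.50 times as high in replicate 5 as in replicate 6. BGN and DCN had 3 counts each in replicate 6, which gave ratios of 23.3 (7.62 to 116) and 18.3 (5.94 to 91.8). LUM was 1.74 times as high (0.857 to 3.65), POSTN 0.690 times and VCAN 0.739 times. Against the mean of the static libraries of that day, replicate 5 stood at 742% for TNC, 143% for FBN1, 127% for VCAN, 99.6% for FN1 and 84.2% for SPARC, but at 33.4% for BGN, 7.70% for DCN and 0.644% for LUM. The library thus held FN1 and SPARC near the static level, and FBN1 and TNC above it. LUM was at the level of the other passaged libraries of that day. Epicardial and mesothelial markers summed to 136.3 FPKM in replicate 5 and 25.15 FPKM in replicate 6, and the 8 hepatic and endodermal markers to 8.08 and 8.16 FPKM. Whether these differences bear on the matrix genes was not tested.

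**Figure D5:**
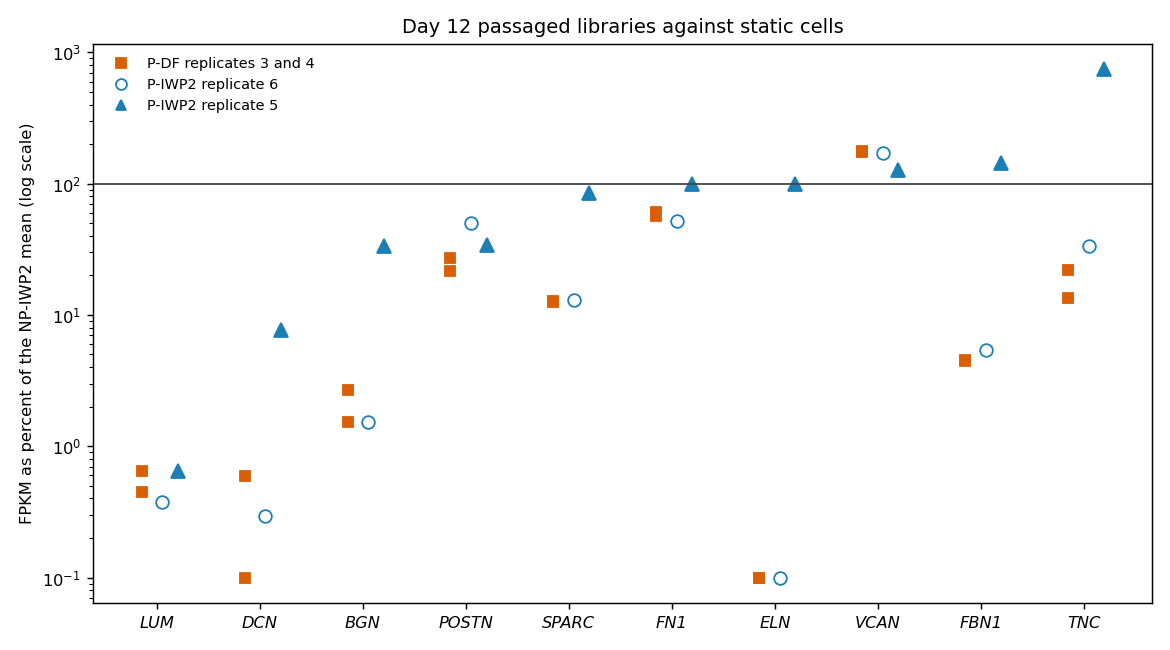
Level of each gene in the Day 12 passaged libraries as a percent of the mean FPKM of the NP-IWP2 libraries, on a log scale, with the static mean as the horizontal line at 100. Squares are P-DF, the open circle P-IWP2 replicate 6 and the triangle P-IWP2 replicate 5, and symbols at 0.1 are libraries listed at 0. Replicate 5 runs from 0.644% for LUM to 742% for TNC, and replicate 6 from 0% for ELN to 172% for VCAN.

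Several sets of markers of other cells also differed between these groups on Day 16. Summed levels of the 8 fibroblast and stromal markers, none of them among the 10 genes, were 1239 and 1254 FPKM in NP-IWP2 on Day 16, 27.24 and 22.39 FPKM in P-DF and 36.85 and 39.84 FPKM in P-IWP2. The fibroblast gene TCF21 was at 1 and 0 counts in P-DF and at 0 in both P-IWP2 libraries on Day 16, where COL1A1 was still 11.29 to 25.64 FPKM. The hepatic and endodermal markers summed to 828.4 and 681.3 FPKM in NP-IWP2 on Day 16 and to between 14.15 and 20.07 FPKM in passaged cells, and 7 of the 8 were at or under 1 FPKM in every passaged library on both days. Epicardial and mesothelial markers summed to 101.6 and 120.0 FPKM in NP-IWP2 and to between 11.26 and 24.48 FPKM in passaged cells on Day 16, where 5 of the 7 tested fell in P-DF and 6 in P-IWP2. Endothelial markers summed to 54.20 and 53.83 FPKM in NP-IWP2 and 12.30 to 16.87 FPKM in passaged cells on Day 16. Smooth muscle markers overlapped between static and passaged cells on Day 16, at 209.5 and 436.2 against 231.6 to 899.9 FPKM. Cardiomyocyte markers summed to 4428 and 3409 FPKM in NP-IWP2, 9281 and 8443 FPKM in P-DF and 10850 and 11380 FPKM in P-IWP2 on Day 16. In each passaged treatment 2 of these 8 rose and 1, MYH6, fell. Of all genes, 5.39% rose and 9.86% fell in P-DF, and 7.15% rose and 9.95% fell in P-IWP2. On Day 12 the cardiomyocyte sums of NP-IWP2 (5731 and 5014 FPKM) and P-DF (5713 and 5642 FPKM) overlapped. Endothelial sums also overlapped then, at 207 and 189.9 against 226.5 and 162.9 FPKM. Even so, 4 of the 8 endothelial markers fell in P-DF on Day 12 and none rose, where 3.32% of all genes fell. In each P-DF library of that day 6 of the 8 were at or under 1 FPKM, against 1 in each NP-IWP2 library. The part of these markers in the differences of the matrix genes was not tested.

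Genes with the most similar profile were sought for each member, as the 2 genes with the smallest root-mean-square difference of centred log2 CPM over the 12 libraries. For LUM these were APOA2 and RBP4, with differences of 0.95 and 0.99 log2 units against a range of LUM itself of 10.97. For DCN they were FGB and TTR (0.93 and 0.93, range 10.19). These 4 genes encode plasma proteins that the liver secretes. For BGN they were TGFBI and THY1 (0.64 and 0.65, range 8.26), for TNC COL14A1 and ASIC4, for FBN1 IGLON5 and PEAR1, and for SPARC FSHR and TNS2. For FN1 they were ID3 and LIN28B (0.24 and 0.27, range 2.80), for POSTN KRT19 and ARHGEF3, for VCAN S1PR3 and TMEM200C, and for ELN RERG and TCEAL5. Among the 10 genes themselves, pairs were listed where each gene was the other's nearest. They were SPARC and ELN (0.48), FBN1 and BGN (0.89), VCAN and POSTN (0.93), and LUM and DCN (1.26). Logarithms were taken with a prior count of 2, which shapes the profiles of genes with few counts. ELN, for example, had at most 24 counts in any library. The points share their libraries and their depth, so these are descriptions only.

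The passaged treatments were then compared with each other, which asks whether IWP2 after passaging altered the matrix genes. None of the 10 genes was called in P-IWP2 against P-DF on either day. The share of all genes called by edgeR was 0% on both days, with 2061 and 1567 genes at an unadjusted p under 0.05 on Day 12 and Day 16. DESeq2 called 172 and 110 genes, among them FBN1 and TNC on Day 12, both higher in P-IWP2 (adjusted p = 0.0426 and 0.0265) with replicate 5 as the high library, and LUM on Day 16, lower in P-IWP2 (log2 fold change -3.87, adjusted p = 8.6e-05). LUM had 31 and 39 counts in P-DF and 3 and 2 in P-IWP2 on Day 16, and the edgeR log2 fold change was -3.83 ± 0.43 (adjusted p = 0.0819). BGN had 7 and 11 counts in P-DF and 0 in both P-IWP2 libraries. Without replicate 5, edgeR called 5 genes on Day 16, with LUM, BGN, VCAN and POSTN lower and SPARC higher in P-IWP2, where 2.49% of all genes were called, and none on Day 12.

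The days were then compared within each treatment. In NP-IWP2, LUM rose by 1.11 ± 0.20 on the log2 scale (adjusted p = 0.0299), and it was the only called one of the 10 genes, where 1.98% of all genes were called. Both Day 16 libraries of NP-IWP2 lay above both Day 12 libraries for LUM, DCN, BGN, FBN1, VCAN, SPARC and TNC, with log2 fold changes from 0.57 to 1.60, where 24.4% of all genes lay higher and 40.9% lower without overlap. Without P-IWP2 Day 12 replicate 5, these 7 genes were called higher in NP-IWP2, where 17.1% of all genes were called. The call of LUM held in 6 of 12 fits with a library left out (adjusted p up to 0.275, without NP-IWP2 Day 12 replicate 2). In P-DF, POSTN rose by 1.56 ± 0.42 (adjusted p = 0.0384) and FN1 fell, where 13.6% of all genes were called. Without replicate 5, LUM and POSTN rose and FN1, FBN1, TNC and VCAN fell in P-DF, where 29.2% of all genes were called. The call of POSTN held in 5 of 12 fits with a library left out (adjusted p up to 0.286, without P-DF Day 16 replicate 4). In P-IWP2, 7 of the 10 genes fell, where 27.0% of all genes were called, and ELN, POSTN and SPARC were not called. The call of DCN among them held in 1 of 12 fits with a library left out. These falls include replicate 5 on Day 12. With replicate 6 alone on Day 12, the log2 fold changes of the 7 genes stayed below 0, from -1.20 (VCAN) to -4.92 (TNC). That of SPARC was then 1.15, from 36.80 to 57.97 and 73.60 FPKM.

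The effect of P-IWP2 differed between the days for 3 of the 10 genes (LUM, TNC and VCAN), where 1.84% of all genes were called in this interaction. With a library left out, these calls held in 9 (LUM), 2 (TNC) and 2 (VCAN) of 12 fits. For P-DF the interaction was called for none of the 10 genes, where 0.482% of all genes were called by edgeR and 2425 genes had an unadjusted p under 0.05. DESeq2 called 2 of the 10 genes and 485 genes in all in the P-DF interaction. Without replicate 5, edgeR called 4 of the 10 genes in P-DF (FBN1, FN1, TNC and VCAN) and 6 in P-IWP2 (the same 4, LUM and BGN), all with a lower fold change on Day 16, where 7.62% and 7.89% of all genes were called.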

How the data were processed

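The 10 genes, the gene lists and the tests were chosen with earlier results of these data known. Total RNA was copied to cDNA with a low-input kit. Per the labels and the study's methods, the authors trimmed reads with cutadapt 1.9.1, aligned them to hg38 with HISAT2 2.0.1 and counted them per gene with HTSeq 0.6.1. The strand setting is not given in the sources used here. The authors deposited 1 table with raw counts and FPKM per gene and library, and deposited FPKM differed from those recomputed from counts and gene lengths by at most 0.005. The 20417 genes with an identifier but no symbol were kept in library sizes and tests.

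Counts were tested with edgeR 4.0.16 (quasi-likelihood, TMM, filterByExpr) in R 4.3.3 on 12 libraries as 6 groups, or on 8 libraries with a day term for both days together. P-values were adjusted by Benjamini-Hochberg over the 19505 genes tested, with a threshold of 0.05. Standard errors are the size of the log2 fold change divided by the square root of F. DESeq2 1.42.0, other scalings, no filter, only the groups compared, the replicate number as a block and each library left out were the alternatives. FPKM served for levels only, with means and ranges. Intervals for ratios of pooled counts are exact binomial intervals at 95% and, like the floor of 3 counts, cover counting error only. Depth ranged from 14885589 to 19176239 counts. On simulated data with 200 changed genes, the P-DF test on Day 16 recovered 77, of which 16 were changed by 2-fold and 61 by 4-fold, with 2 false calls among 19505 genes. Named genes are all 10 members, at most 4 called genes with the largest change per list and comparison, the 2 nearest profiles of each member, marker list totals, and FBN2, chosen after its values were seen.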

Additional observations from a re-analysis of the deposited data

Results flagged for a closer look

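The effect of passaging with IWP2 differed between Day 12 and Day 16 for LUM, TNC and VCAN by the interaction term of edgeR's fit, with log2 differences of -3.74 ± 0.51 (adjusted p = 0.0131), -9.26 ± 1.72 (adjusted p = 0.0335) and -1.76 ± 0.31 (adjusted p = 0.0295). All 3 were lower on Day 16 relative to NP-IWP2 than on Day 12. For TNC the Day 12 group held 23.71 FPKM in replicate 5 and 1.07 FPKM in replicate 6, and with replicate 6 alone the difference was -5.93. The differences of LUM and VCAN were then -3.41 and -2.05. With a library left out, the call of LUM held in 9 of 12 fits (adjusted p up to 0.0843, without P-IWP2 Day 16 replicate 6). Those of TNC and VCAN held in 2 of 12, without P-IWP2 Day 12 replicate 5 or 6 (adjusted p up to 0.185 and 0.160 without NP-IWP2 Day 12 replicates 1 and 2). With only the groups compared in the fit, all 3 calls were lost (adjusted p = 0.0587, 0.129 and 0.133). HAS2 differed between the days by -5.42 ± 0.89 in P-DF (adjusted p = 0.0414) and by -4.08 ± 0.85 in P-IWP2 (adjusted p = 0.0490). It was picked by hand from the other gene lists, in which further genes were called in these interactions. Its calls were not examined with a library left out.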

How the results depend on the processing

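Counts of the 10 genes called moved with the setting in most comparisons. P-DF against NP-IWP2 on Day 12 gave 8 genes with DESeq2 and 10 both without the filter and with only the groups compared, against 5, and 1 to 10 with a library left out. P-IWP2 against NP-IWP2 on Day 12 gave 7 without the filter, 0 with only the groups compared, against 2, and 1 to 9 with a library left out. On Day 16, leaving out a library gave 3 to 9 genes in P-DF and 4 to 10 in P-IWP2. P-IWP2 against P-DF gave 2 genes with DESeq2, 6 without the filter and 0 to 8 with a library left out on Day 12. On Day 16 it gave 1 with DESeq2, 6 without the filter, 2 with only the groups compared and 0 to 5 with a library left out. P-IWP2 against NP-IWP2 over both days gave 6 with DESeq2, 6 without the filter and 1 to 9 with a library left out. Over both days P-DF gave 8 to 9.

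Day 16 against Day 12 gave 2 genes (DESeq2), 7 (no filter), 8 (only the groups compared) and 0 to 7 (a library left out) in NP-IWP2. In P-DF it gave 5 (no filter), 5 (only the groups compared) and 1 to 6 (a library left out), and in P-IWP2 0 (only the groups compared) and 1 to 9 (a library left out). The interaction of P-DF with day gave 2 (DESeq2), 1 (total counts), 5 (no filter), 5 (only the groups compared) and 0 to 4 (a library left out). That of P-IWP2 gave 7, 5, 8, 0 and 0 to 9 under the same settings. With only the groups compared, 2 libraries a group estimate the spread. The other causes were not tested.

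Single genes reversed in 4 cases. In P-IWP2 on Day 12 the log2 fold change of FBN1 was 0.37 without P-IWP2 Day 12 replicate 6 and -4.12 without replicate 5, and that of TNC was -1.49 without replicate 5 and 2.75 without replicate 6. Between the days, SPARC in P-IWP2 was 1.15 without replicate 5 and -1.31 without replicate 6, and POSTN in NP-IWP2 was -0.0229 with total counts. Total counts shifted the median of all genes by -0.25 (P-DF) and -0.31 (P-IWP2) on Day 16. Of the log2 fold changes reported for single genes, 684 kept direction and call with a library left out, 39 gained the call, 114 lost it and 3 reversed.

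Counts of all genes called moved too. With a library left out, P-DF against NP-IWP2 gave 83 to 4488 genes on Day 12 (783 with all libraries), 542 to 6658 on Day 16 (2975) and 5077 to 6091 over both days (6525). P-IWP2 against NP-IWP2 gave 58 to 3082 (323), 878 to 7140 (3336) and 139 to 4924 (481). P-IWP2 against P-DF gave 0 to 6088 on Day 12 and 0 to 510 on Day 16 (0 on both). The days gave 2 to 3517 in NP-IWP2 (386), 458 to 5984 in P-DF (2654) and 1211 to 9776 in P-IWP2 (5270), and the interactions 0 to 1568 for P-DF (94) and 4 to 6109 for P-IWP2 (358). Under the other settings the ranges, in the same order, were 690 to 5361, 2950 to 6927, 6397 to 7109, 0 to 1527, 3328 to 5127, 430 to 1521, 0 to 1687, 0 to 645, 154 to 5124, 1856 to 6274, 0 to 7378, 12 to 2380 and 37 to 2732.

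Differences between the replicates of a treatment correlated little between the days (r = 0.20, 0.00 and -0.05 in NP-IWP2, P-DF and P-IWP2). This cannot tell whether equal replicate numbers mark paired samples. With the replicate number as a block, all genes called were 154 for the days in NP-IWP2 and 12 for the P-DF interaction. The block lost the calls of POSTN between the days in P-DF (adjusted p = 0.0775) and of VCAN in the P-IWP2 interaction (adjusted p = 0.0649), gained that of LUM between the days in P-DF (adjusted p = 0.0432), and changed no other call of the single genes reported. Depth limits the values of DCN, BGN and ELN in passaged cells, and of LUM and TNC in P-IWP2 on Day 16. These values rest on few or no counts.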
